A study of Mus musculus with 83 samples.

Results

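The 10 genes described here act in ion transport across the colonic epithelium, and their transcripts were followed over the lifespan of the mouse. They are the rows of the colon count table for Slc26a3, Slc9a3, Scnn1a, Scnn1b, Scnn1g, Atp12a and Slc26a2, grouped here as 7 absorptive genes, and for Cftr, Slc12a2 and Best2, grouped as 3 secretory genes, which makes 10 of the 37764 genes in the table. They were chosen by symbol with earlier results of these data known, although the rule itself used no measured value. All 83 mice were males of the strain C57BL/6J/Ukj. The study's methods name no treatment of them. Its reporting summary places the samples in a larger study of multiple variables. The age groups were 3, 9 and 15 months (n = 16 each), 24 months (n = 17) and 28 months (n = 18). Snap-frozen tissue of the proximal colon went into polyA RNA-seq, so each value mixes epithelium, muscle and immune cells. In such bulk tissue, fewer cells that express a gene and less RNA per cell cannot be told apart.

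The colon recovers salt and water from its contents and releases chloride and bicarbonate into the mucus layer. On the absorptive side, sodium enters surface cells through sodium-proton exchange or through the epithelial sodium channel ENaC, and chloride enters in exchange for bicarbonate. On the secretory side, chloride is loaded into crypt cells across the basolateral membrane and leaves them through apical anion channels, with potassium channels and the sodium pump keeping the driving force.

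The libraries held 23026370 to 75838290 read pairs counted on genes (median 35495123). Each age group held mice from all 3 library batches, with 4 to 7 mice of an age in a batch. The labelled tissue was checked against marker lists. All 7 epithelium markers were measured in every age group, with summed levels of 6855 to 13840 CPM (counts relative to the library size after normalization), while the 4 small intestine markers summed to 1.42 to 20.6 CPM. Of these 4, Apoa4 and Apoc3 had median levels under 0.1 CPM, the other 2 were not under it, and the 1 that passed the filter on low counts was lower at 28 against 3 months (-0.63 on the log2 scale). A few libraries stood apart. Replicate 16 of the 15-month group had the lowest epithelium sum, 6855 CPM against at least 8629 CPM in the others. Replicates 16 and 10 of the 3-month group had the lowest smooth muscle sums, 827.6 and 868.0 CPM, against an age-group median of 3559 CPM. Replicate 13 of the 28-month group had the highest Slc26a2 level of all mice. Calls of the tested members that change without these libraries are given with and without them. The partner genes and the correlations below were not recomputed without them.

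The transcripts covered a wide range of levels when set on the per-length scale TPM (counts divided by exon length and scaled to the library, mean over 83 mice). Slc26a3, the apical chloride-bicarbonate exchanger, stood at 189.7 TPM. Slc9a3, which encodes the apical sodium-proton exchanger NHE3, stood at 188.2 TPM, and Slc26a2, a sulfate transporter of the same family as Slc26a3, at 170.9 TPM. The order of these 3 is not distinct, because Slc26a3 was above Slc9a3 in 49 of the 83 mice and Slc9a3 above Slc26a2 in 46. Slc12a2, the basolateral sodium-potassium-chloride cotransporter that loads chloride for secretion, followed at 114.0 TPM and lay below Slc26a2 in all 83 mice. Scnn1a, the alpha subunit of ENaC, had 88.6 TPM, and Cftr, the cyclic AMP-regulated apical anion channel, had 59.9 TPM. The order of Slc12a2 above Scnn1a held in 75 mice and that of Scnn1a above Cftr in 81. Low levels were measured for Scnn1b, the beta subunit of ENaC (12.1 TPM), for Best2, a bestrophin anion channel (6.92 TPM), and for Atp12a, the catalytic subunit of the non-gastric proton-potassium ATPase (5.84 TPM). Best2 was above Atp12a in 59 of the 83 mice. Scnn1g, the gamma subunit of ENaC, was the lowest at 0.129 TPM. It had 0 to 34 read pairs per mouse and none in 7 of the 83 mice.

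ENaC is built from 3 different subunits, and their transcripts were present in very unequal amounts. Within each mouse, the ratio of Scnn1a to Scnn1b in TPM ranged from 4.17 to 14.1, with a median of 6.01 in the youngest mice, 8.15 at 15 months, 8.82 at 24 months and 8.01 in the oldest. Scnn1g and Scnn1b are neighbours on the same strand of chromosome 7, at chr7:121734479-121768475 and chr7:121865038-121918514 (GRCm38, plus strand), with 96562 bases between them. Their promoters are shown because these neighbouring genes of a single channel differed so far in transcript level, and that of Slc9a3 is shown as the promoter of a highly expressed absorptive gene whose level changed late in life. The RefSeq sequences (GRCm38.p6, plus strand) run from 250 bases before to 50 bases after the transcript start, and capitals mark the GC box letters GGGCGG on either strand. They lie at chr13:74121163-74121462 for Slc9a3, chr7:121864788-121865087 for Scnn1b and chr7:121734229-121734528 for Scnn1g.
Slc9a3: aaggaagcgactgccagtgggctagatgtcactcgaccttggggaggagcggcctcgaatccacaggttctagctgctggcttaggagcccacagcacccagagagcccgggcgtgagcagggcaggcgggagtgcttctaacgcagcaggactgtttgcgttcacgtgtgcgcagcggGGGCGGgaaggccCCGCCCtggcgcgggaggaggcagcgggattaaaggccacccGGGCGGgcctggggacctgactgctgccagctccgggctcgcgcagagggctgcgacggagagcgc
Scnn1b: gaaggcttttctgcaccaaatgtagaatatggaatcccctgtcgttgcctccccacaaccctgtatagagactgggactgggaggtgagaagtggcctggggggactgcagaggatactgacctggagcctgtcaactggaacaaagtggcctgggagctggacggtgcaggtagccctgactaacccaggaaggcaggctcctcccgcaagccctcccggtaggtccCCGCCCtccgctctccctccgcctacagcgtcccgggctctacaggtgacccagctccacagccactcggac
Scnn1g: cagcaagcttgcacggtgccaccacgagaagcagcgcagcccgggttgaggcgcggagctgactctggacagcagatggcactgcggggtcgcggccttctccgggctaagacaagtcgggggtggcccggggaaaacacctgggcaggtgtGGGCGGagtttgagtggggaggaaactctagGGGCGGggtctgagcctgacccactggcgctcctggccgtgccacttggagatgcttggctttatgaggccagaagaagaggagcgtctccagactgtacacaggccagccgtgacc
The window held 3 GC boxes in Slc9a3, 1 in Scnn1b and 2 in Scnn1g, and 35.7% of the 32841 promoters searched held at least 1. The letters AGAACA, a core of glucocorticoid and mineralocorticoid receptor binding sites, were searched on both strands too. They were found in none of these 3 windows and in 19.0% of all promoters. The GC content was 68.7% in Slc9a3, 61.7% in Scnn1b and 64.7% in Scnn1g, against a median of 52.7% over all promoters. The promoter table matched 5 of the 10 members, and the other 2 windows differed from each other. That of Slc26a3 held 0 GC boxes and 1 AGAACA, with a GC content of 39.3%, and that of Cftr held 6 GC boxes and 0 AGAACA, with a GC content of 71.3%. The high and the low member of the ENaC pair thus both had promoters richer in GC than the median.

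Transcript levels were compared between ages with edgeR's quasi-likelihood test on the counts, with age and library batch in the model and Benjamini-Hochberg adjustment over the 18325 genes that passed the filter on low counts. A gene was called at an adjusted p below 0.1. The filter was passed by 9 of the 10 members and not by Scnn1g. Over the 5 ages 6 of the 9 tested members differed, against 54.9% of all tested genes: Scnn1b, Atp12a, Slc9a3, Best2, Cftr and Slc12a2. By side, these were 3 of the 6 tested absorptive genes and all 3 secretory genes. Scnn1a (edgeR adjusted p = 0.131), Slc26a3 (0.194) and Slc26a2 (0.308) did not pass. The members near the threshold changed places under other settings. Slc12a2 (edgeR adjusted p = 0.0768) was lost without replicate 16 of the 15-month group (0.114), without replicate 16 or 10 of the 3-month group (0.112 and 0.11), with no batch term (0.154), with the replicate number as a block (0.107), with no filter (0.13) and with the smooth muscle score as a covariate (0.337). Cftr (0.0706) was lost with no filter (0.109) and with the smooth muscle score (0.336). Atp12a and Slc9a3 were lost with the goblet cell score as a covariate (edgeR adjusted p = 0.271 and 0.34). Under that covariate 7539 of all tested genes were called, beside 10069 in the main fit. Scnn1a was gained without each of the 4 libraries named above (edgeR adjusted p = 0.0156 to 0.0608), with DESeq2 and its size factors, with at least 10 counts in every mouse, and with the epithelium, goblet cell or posterior Hox score as a covariate. Best2 and Scnn1b were called under every alternative run. A curved course, tested as departure from a straight line over age, was called for 4 of the 9, Best2, Scnn1b, Atp12a and Slc9a3, against 16.2% of all tested genes. None of these 4 was called with the goblet cell score as a covariate, under which Scnn1a was the only member called (edgeR adjusted p = 0.0961). Over all tested genes, 1841 departed from a straight line under that covariate, beside 2969 in the main fit.

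**Figure D1:**
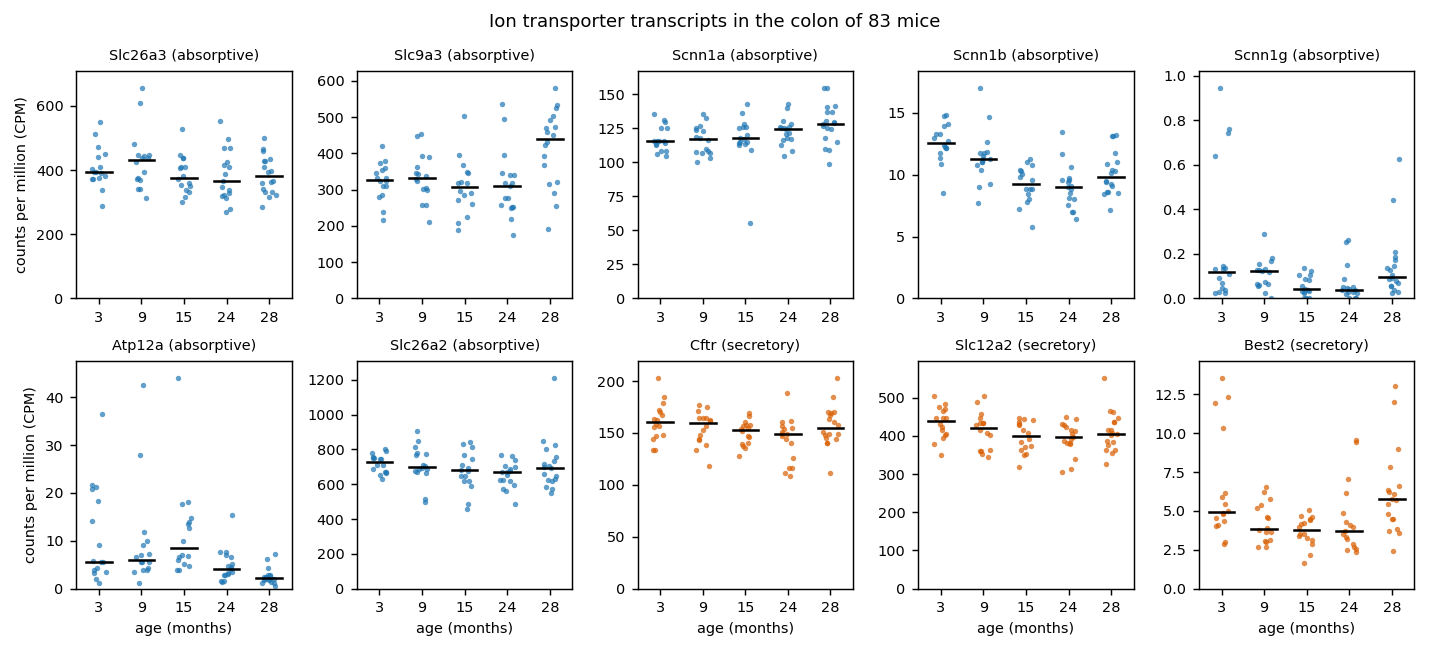
Level of the 10 transcripts in each mouse. Each panel plots CPM (vertical axis, from 0) against age in months, with a point per mouse and a black line at the median of the age group; absorptive genes are blue and secretory genes orange. Scnn1b steps down by 15 months, Atp12a is low at 24 and 28 months, Slc9a3 is high at 28 months, and Best2 is lowest at 15 and 24 months in the median.

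Of the absorptive genes, Slc9a3 was higher and Atp12a and Scnn1b were lower in the oldest mice. At 28 against 3 months 4 of the 6 tested absorptive genes were called, 2 higher and 2 lower, and 0 of the 3 secretory genes, against 49.4% of all genes in either direction, so the members were not called more often than genes in general. The median log2 fold change was -0.04 for the absorptive and -0.06 for the secretory genes, beside -0.01 over all tested genes. The median size of the change, without its sign, was 0.23 for the absorptive and 0.06 for the secretory genes, beside 0.14 over all genes. The absorptive genes thus moved in opposite directions, while the changes of the secretory genes between these 2 ages were small. Whether the sides differed from each other was not tested.

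Slc9a3 takes up sodium in exchange for protons and, with Slc26a3, carries the electroneutral absorption of sodium chloride. Its lowest, median and highest levels were 217.3, 327.8 and 420.6 CPM at 3 months. At 24 months they were 173.5, 309.5 and 536.8 CPM, and at 28 months 190.4, 440.5 and 581.7 CPM. The groups overlapped, but 11 of the 18 mice aged 28 months lay above every 3-month mouse, while 1 lay below all of them. Slc9a3 rose by 0.36 on the log2 scale at 28 against 3 months (SE 0.12, 1.28-fold, edgeR adjusted p = 0.0114) and by 0.40 at 28 against 24 months (SE 0.12, 1.32-fold, edgeR adjusted p = 0.0236). Both calls were lost with the goblet cell score as a covariate, at 0.24 (edgeR adjusted p = 0.248) and 0.30 (edgeR adjusted p = 0.318). With age and batch removed, Slc9a3 had r = -0.43 with the enteroendocrine cell score and -0.38 with the macrophage score, whose part in the rise was not tested. Slc9a3 was the only member called at 28 against 24 months in the main fit, where 11.7% of all genes were called. Cftr was called there too without replicate 16 of the 15-month group or without either of the 3-month libraries named above (2 members each time), and DESeq2 called 3 members. Between 3 and 24 months the estimate was -0.04 (95% interval -0.27 to 0.19, edgeR adjusted p = 0.841). The rise at 28 against 3 months was not the same in each library batch, with mean log2 differences of 0.57, -0.01 and 0.34 in batches 1, 2 and 3. A test of this difference between batches called no member (lowest adjusted p 0.999) and 0.0% of all genes, and 589 of the 18325 genes had an unadjusted p below 0.05 in it.

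Scnn1b, which encodes a subunit that ENaC needs for full activity, fell by 15 months and was still lower at 28 months. The lowest, median and highest levels were 8.52, 12.6 and 14.8 CPM at 3 months. At 15 months they were 5.81, 9.21 and 11.3 CPM, and at 28 months 7.17, 9.83 and 13.2 CPM. All 16 mice aged 15 months lay below the 3-month median, as did 16 of 17 at 24 months and 15 of 18 at 28 months, although the ranges overlapped. The fall was 0.45 on the log2 scale at 15 against 3 months (SE 0.09, edgeR adjusted p = 0.000143), where 2 members were called and 7.75% of all genes. Slc12a2 was called there too without replicate 13 of the 28-month group (-0.14, edgeR adjusted p = 0.0731). The fall of Scnn1b was 0.48 at 24 against 3 months (SE 0.08, edgeR adjusted p = 1.00e-05) and 0.33 at 28 against 3 months (SE 0.08, edgeR adjusted p = 0.000974). Scnn1b was lower in all 3 batches in each of these comparisons. Against 9 months, Scnn1b was also called lower at 24 months, as was Atp12a (2 members, 15.5% of all genes). At 28 against 9 months 5 members were called, Scnn1a, Slc9a3 and Best2 higher and Scnn1b and Atp12a lower (40.0% of all genes). This call of Scnn1b was lost without replicate 16 of the 15-month group (-0.17, edgeR adjusted p = 0.115) and without replicate 16 or 10 of the 3-month group (-0.17 each, edgeR adjusted p = 0.117 each). At 28 against 24 months the estimate for Scnn1b turned to 0.15 (95% interval -0.01 to 0.31, edgeR adjusted p = 0.28). With age and batch removed, Scnn1b had r = -0.41 with the fibroblast score and -0.36 with the macrophage score, each the mean log2 CPM of the marker list. The summed macrophage markers ranged from 117.9 to 181.4 CPM at 3 months, 125.8 to 202.1 CPM at 15 months and 109.9 to 275.0 CPM at 28 months, and 4 of the 5 rose at 28 against 3 months. Of the 5 fibroblast markers, 1 rose and 2 fell. Scnn1b also had r = 0.38 with the enteroendocrine cell score, -0.40 with the tuft cell score and -0.37 with the goblet cell score. Of the 4 enteroendocrine cell markers, 2 fell and 0 rose at 28 against 3 months. The part of the macrophage, fibroblast, enteroendocrine and tuft cell markers in the fall of Scnn1b was not tested.

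Scnn1a was higher, not lower, in the oldest mice. Its median was 115.6 CPM at 3 months and 128.5 CPM at 28 months, with ranges of 104.6 to 135.9 and 99.1 to 155.1 CPM. It rose by 0.12 at 28 against 3 months (SE 0.06, edgeR adjusted p = 0.0754), and 14 of the 18 oldest mice lay above the 3-month median. The call was lost without the filter on low counts (adjusted p = 0.101) and with the replicate number as a block (adjusted p = 0.188). At 24 months the estimate against 3 months was 0.07 (edgeR adjusted p = 0.411). Scnn1a was also called higher at 28 against 15 months, but not without replicate 16 of the 15-month group (0.08, edgeR adjusted p = 0.136). With the goblet cell score as a covariate, Scnn1a was called higher at 24 against 15 months (0.18, edgeR adjusted p = 0.0722).

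Scnn1g had too few counts for the test as run on the other members. Its lowest, median and highest levels were 0.0250, 0.120 and 0.946 CPM at 3 months. At 24 months they were 0, 0.0364 and 0.260 CPM, and at 28 months 0.0254, 0.0978 and 0.624 CPM. Without the filter on low counts, which put all 37764 genes into the test, Scnn1g fell by 2.12 on the log2 scale at 15 against 3 months (SE 0.47, edgeR adjusted p = 0.00198, 3.36% of genes called) and by 1.95 at 24 against 3 months (SE 0.44, edgeR adjusted p = 0.000932, 15.6% of genes called). In that fit Scnn1g was also called lower at 28 against 3 months (-0.93, SE 0.39, edgeR adjusted p = 0.0824, 25.1% of genes called) and higher at 28 against 15 months (1.19, SE 0.50, edgeR adjusted p = 0.0985, 19.8% of genes called). It differed over the 5 ages (edgeR adjusted p = 0.00035, 27.4% of genes called) and departed from a straight line (edgeR adjusted p = 0.0185, 5.93% of genes called). Most mice had a handful of reads, so these folds rest on small numbers, and 4 mice of the 3-month group carried most of the reads of that age.

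Atp12a, which takes up potassium in exchange for protons in the colon, had the largest spread between mice and the largest change with age of the 9 tested members. Its lowest, median and highest levels were 1.21, 5.64 and 36.5 CPM at 3 months. At 15 months they were 3.79, 8.53 and 44.1 CPM, and at 24 months 1.37, 4.04 and 15.5 CPM. At 28 months they were 0.627, 2.19 and 7.17 CPM. All 18 of the oldest mice lay below the 15-month median and 15 of them below every 15-month mouse, so these groups overlapped little, while the 3-month and 28-month groups overlapped more, with 16 of 18 below the 3-month median. Atp12a was the only member called at 24 against 15 months, with a log2 fold change of -1.31 (SE 0.37, 2.48-fold lower, edgeR adjusted p = 0.0185), where 13.5% of all genes were called. At 28 against 3 months it fell by 2.00 on the log2 scale (SE 0.37, 4.01-fold, 95% interval -2.74 to -1.27, edgeR adjusted p = 8.97e-06). The mean log2 differences in batches 1, 2 and 3 were -1.50, -1.01 and -2.54. The estimate between 15 and 3 months was 0.18 (edgeR adjusted p = 0.865), but batch 3 went the other way at -1.39 against 0.90 and 1.16 in batches 1 and 2.

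Atp12a was set beside the markers of goblet cells, the mucus-secreting cells of the epithelium, and of tuft cells, its chemosensory cells. Of the 7 goblet cell markers, 6 fell and 1 rose at 28 against 3 months. Their summed level ranged from 29440 to 39450 CPM at 3 months, 33640 to 44320 CPM at 9 months and 21360 to 51180 CPM at 15 months. It ranged from 27740 to 41780 CPM at 24 months and 24360 to 34610 CPM at 28 months. Its mean was 35110 CPM at 3 months, 40190 CPM at 15 months, 34350 CPM at 24 months and 28610 CPM at 28 months. Over the 83 mice, with age and batch removed, Atp12a had r = 0.54 with the goblet cell score, the mean log2 CPM of these markers. With this score as a covariate the log2 fold change of Atp12a was -0.57 at 28 against 3 months (edgeR adjusted p = 0.29) and -0.32 at 24 against 15 months (edgeR adjusted p = 0.662), and both calls were lost. The call of Atp12a at 24 against 3 months (-1.13, edgeR adjusted p = 0.0158) was kept under it. That call was kept under every other alternative run too, with estimates of -1.19 to -0.78 over all of them. The calls of Slc9a3 were also lost under the goblet cell covariate, with smaller estimates of the same sign, at 0.24 (edgeR adjusted p = 0.248) at 28 against 3 months and 0.30 (edgeR adjusted p = 0.318) at 28 against 24 months. Fewer genes in general were called under it at these ages. At 28 against 24 months 299 of the 18325 tested genes were called, beside 2139 in the main fit. At 28 against 3 months 6031 were called, beside 9046, and at 24 against 15 months 1652, beside 2476. The fall of Scnn1b was larger under the goblet cell covariate, at -0.52 (edgeR adjusted p = 1.75e-05). With the posterior Hox score, which follows the position along the gut, as a covariate, Atp12a fell by 1.75 (edgeR adjusted p = 1.92e-05). Atp12a had r = 0.56 with that score, the highest of its values with the marker scores. All 3 tuft cell markers fell at 28 against 3 months, with a median log2 fold change of -0.60, beside -0.27 for the goblet cell markers. The summed tuft cell markers ranged from 39.0 to 53.1 CPM at 3 months, 36.0 to 49.5 CPM at 9 months and 32.5 to 51.7 CPM at 15 months. They ranged from 33.1 to 47.6 CPM at 24 months and 20.8 to 41.7 CPM at 28 months. Atp12a had r = 0.37 with the tuft cell score, whose part in the fall was not tested. No cause of the fall was tested.

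**Figure D2:**
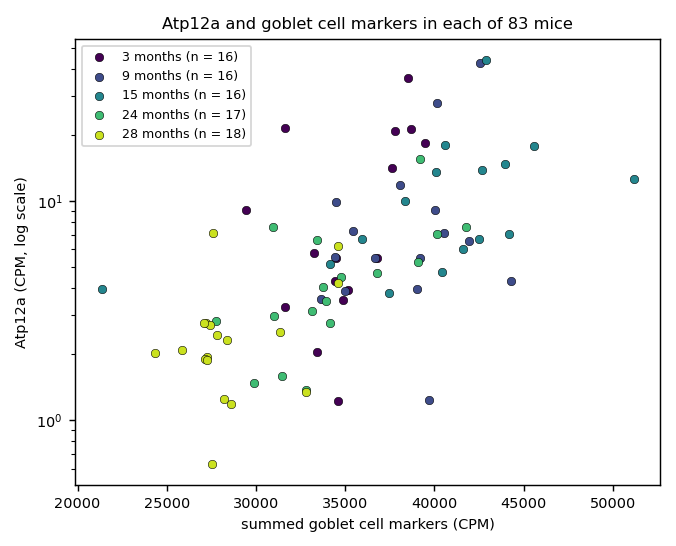
Atp12a against goblet cell markers in each mouse. The horizontal axis is the summed CPM of 7 goblet cell markers, the vertical axis is Atp12a in CPM on a log scale, and the colour gives the age. Most mice aged 28 months lie in the lower left, with sums of 24360 to 34610 CPM and Atp12a of 0.627 to 7.17 CPM.

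Slc26a3 and Slc26a2 were called in none of the 10 pairs of ages, but this depended on the settings. Without replicate 13 of the 28-month group, Slc26a3 was called lower at 24 against 9 months (-0.20, edgeR adjusted p = 0.0836) and at 28 against 9 months (-0.18, edgeR adjusted p = 0.0682), and Slc26a2 at 24 against 3 months (-0.15, edgeR adjusted p = 0.0854). Slc26a3 was also called lower at 24 against 9 months with DESeq2, at least 10 counts in every mouse, the replicate block, and the goblet cell or posterior Hox score as a covariate, at -0.21 to -0.19, and at 28 against 9 months with the replicate block. Slc26a2 was called lower with the goblet cell score as a covariate, at 24 against 3 months (-0.17, edgeR adjusted p = 0.0698) and against 9 months (-0.20, edgeR adjusted p = 0.07). For Slc26a3, the lowest, median and highest levels were 288.2, 393.3 and 549.5 CPM at 3 months and 285.9, 380.0 and 499.2 CPM at 28 months, and the log2 fold change was -0.07 (95% interval -0.22 to 0.08). For Slc26a2 they were 628.3, 728.6 and 802.3 CPM at 3 months and 551.7, 696.0 and 1213 CPM at 28 months, with a 95% interval of the log2 fold change from -0.15 to 0.14. Changes inside these intervals between 3 and 28 months could not be told from 0. Slc26a3 and Slc9a3 work together in sodium chloride absorption, so their levels were set side by side. In TPM, the ratio of Slc9a3 to Slc26a3 within a mouse had a median of 0.931 at 3 months (range 0.675 to 1.15), 1.03 at 24 months (0.583 to 1.80) and 1.24 at 28 months (0.556 to 1.67). These ranges overlapped at all ages, and the difference between the genes was not tested.

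The 3 secretory genes were all lower at 24 months than at 3 months. At this comparison 5 of the 9 tested members were called, all lower in the older mice (Cftr, Slc12a2, Best2, Scnn1b and Atp12a), beside 17.8% of all genes called lower and 34.5% called in either direction. Cftr fell by 0.17 on the log2 scale (SE 0.06, 1.13-fold, edgeR adjusted p = 0.0201). Slc12a2 fell by 0.14 (SE 0.05, 1.10-fold, edgeR adjusted p = 0.0301) and Best2 by 0.53 (SE 0.20, 1.44-fold, edgeR adjusted p = 0.0422). All 3 were lower in each library batch. The median log2 fold change was -0.17 for the secretory and -0.12 for the absorptive genes, beside -0.01 over all tested genes.

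**Figure D3:**
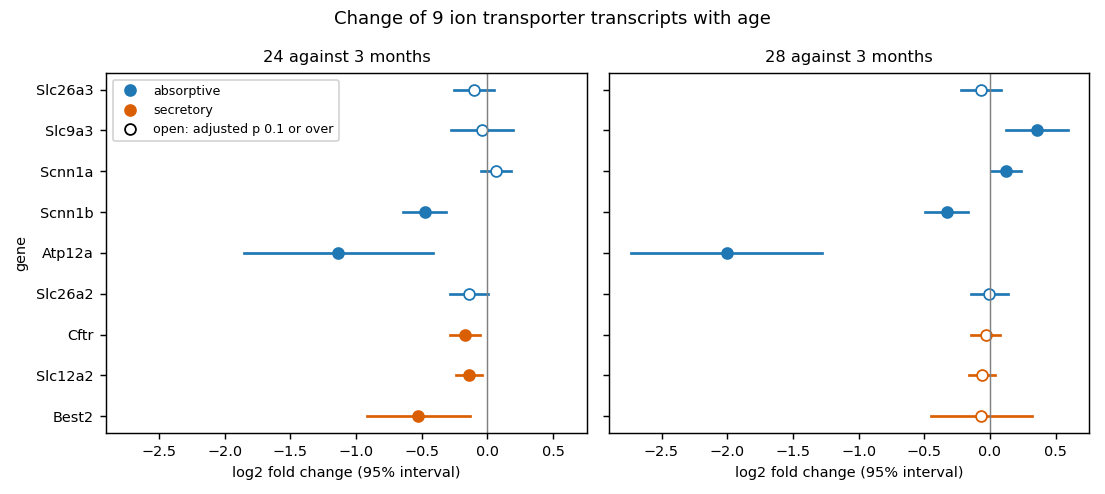
Change with age of the 9 tested transcripts. The horizontal axis is the log2 fold change against 3 months with its 95% interval, at 24 months on the left and 28 months on the right; filled points passed an adjusted p of 0.1, blue is absorptive and orange secretory. All 3 secretory genes lie below 0 at 24 months (-0.17, -0.14 and -0.53) and none is called at 28 months, where the interval of each includes 0.

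Cftr, the channel through which chloride and bicarbonate leave the crypt cell, had lowest, median and highest levels of 133.4, 160.4 and 203.3 CPM at 3 months. At 24 months they were 108.7, 148.8 and 188.1 CPM, and at 28 months 111.4, 154.4 and 202.7 CPM. Of the 17 mice aged 24 months, 14 lay below the 3-month median and 5 below every 3-month mouse. At 28 against 3 months the log2 fold change was -0.03 (95% interval -0.14 to 0.08, edgeR adjusted p = 0.678), and at 28 against 24 months it was 0.14 (edgeR adjusted p = 0.115).

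Slc12a2, which supplies the chloride that Cftr releases, had lowest, median and highest levels of 350.4, 438.7 and 505.0 CPM at 3 months. At 24 months they were 304.9, 398.0 and 448.8 CPM, and 15 of 17 mice lay below the 3-month median. At 28 months they were 327.5, 405.9 and 552.5 CPM, with a log2 fold change against 3 months of -0.06 (95% interval -0.16 to 0.04, edgeR adjusted p = 0.359). With the goblet cell score as a covariate it was called at -0.16 (edgeR adjusted p = 0.0379), and with the epithelium score at -0.10 (edgeR adjusted p = 0.0875). The calls of Cftr, Slc12a2 and Best2 at 24 against 3 months were lost when the smooth muscle score was a covariate, at -0.10 (edgeR adjusted p = 0.231), -0.10 (edgeR adjusted p = 0.207) and -0.35 (edgeR adjusted p = 0.263). The summed smooth muscle markers ranged from 827.6 to 5241 CPM at 3 months and from 3183 to 5338 CPM at 24 months. The macrophage markers moved as well, with summed levels of 117.9 to 181.4 CPM at 3 months and 138.8 to 235.9 CPM at 24 months, and 4 of the 5 rose at 28 against 3 months. With age and batch removed, r with the macrophage score was -0.52 for Slc12a2, -0.38 for Best2 and -0.33 for Cftr, beside -0.28, -0.19 and -0.36 with the smooth muscle score. Best2 and Slc12a2 also had r = -0.42 and -0.39 with the fibroblast score, whose summed markers ranged from 629.7 to 1308 CPM at 3 months and 622.8 to 1254 CPM at 24 months. The part of the macrophage and fibroblast markers in these falls was not tested.

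Best2 departed most clearly from a straight line (edgeR adjusted p = 0.00389), a call that was lost with the goblet cell score as a covariate (edgeR adjusted p = 0.202). Its lowest, median and highest levels were 2.87, 4.92 and 13.6 CPM at 3 months. At 15 months they were 1.62, 3.75 and 5.08 CPM, and at 28 months 2.41, 5.75 and 13.04 CPM. All mice aged 15 months stayed below 5.08 CPM, whereas 11 of the 18 mice aged 28 months lay above that level, so the level was low in middle age and spread upward again at the end. Best2 fell by 0.79 on the log2 scale at 15 against 3 months (SE 0.21, 1.73-fold, edgeR adjusted p = 0.00948) and rose by 0.73 at 28 against 15 months (SE 0.20, 1.65-fold, edgeR adjusted p = 0.00346), where 4 members were called and 42.4% of all genes. It was the only member called at 9 against 3 months (fell by 0.60, SE 0.20, edgeR adjusted p = 0.0704), where 8.69% of all genes were called. That call was lost without replicate 16 of the 3-month group (-0.49, edgeR adjusted p = 0.19) and without replicate 10 (-0.52, edgeR adjusted p = 0.163). At 24 against 3 months it was lost without either too, at -0.41 (edgeR adjusted p = 0.135) and -0.44 (edgeR adjusted p = 0.109). At 15 against 9 months 0 of the 9 members was called by edgeR and 1, Scnn1b, by DESeq2, with 0.431% of all genes called by edgeR. Scnn1b alone had an unadjusted p below 0.05 there (0.000909).

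Best2 and Scnn1g were high in the same mice. At 3 months the 4 highest mice were the same for both genes, replicates 10, 13, 15 and 16. Their Best2 levels were at least 10.3 CPM, with the next mouse at 6.16 CPM, and their Scnn1g levels were at least 0.640 CPM, with the next at 0.144 CPM. The 4 mice stood clear of the other 12 in both genes. They came from all 3 library batches. Replicates 10 and 16 were the libraries with the lowest smooth muscle sums, but replicates 13 and 15 had sums of 3507 and 3460 CPM, close to the age-group median of 3559 CPM. At 24 months the 4 highest mice were also the same for both genes, at 9 months 3 of 4 were shared, at 28 months 2 and at 15 months 0. Over all 83 mice, with age and batch removed, the correlation of the log2 CPM values was r = 0.64, the highest of the 45 pairs of members. The points share libraries and their depth, and Scnn1g rests on few reads.

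**Figure D4:**
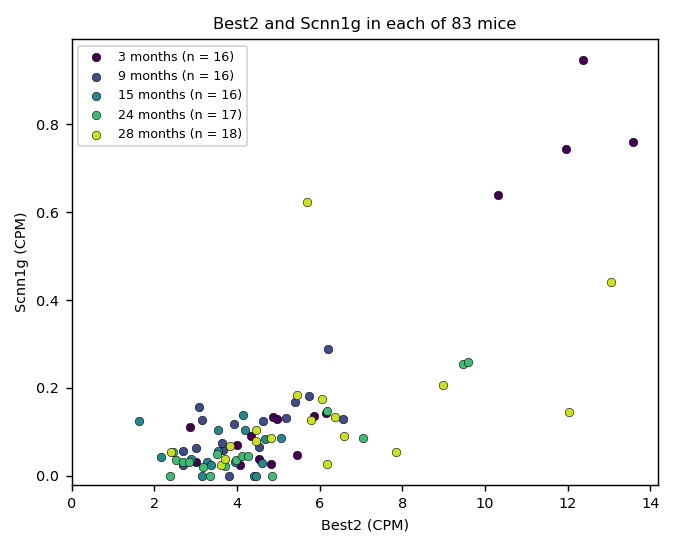
Best2 against Scnn1g in each mouse. Both axes are in CPM, each point is a mouse and the colour gives the age. The 4 mice aged 3 months at the upper right have Best2 of at least 10.3 CPM and Scnn1g of at least 0.640 CPM.

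The members did not fall into an absorptive and a secretory block by their variation between mice. With age and batch removed, the median r was 0.22 over the 21 pairs of absorptive genes, 0.27 over the 3 secretory pairs and 0.32 over the 21 pairs that join the sides. The highest values after Best2 with Scnn1g were Slc26a2 with Slc12a2 (r = 0.62), Cftr with Slc12a2 (0.60), Slc26a2 with Cftr (0.55) and Slc26a3 with Slc9a3 (0.53). The lowest was Scnn1b with Atp12a (r = -0.38). These are descriptions over 83 mice, since all genes of a mouse share its library and its mix of cells.

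**Figure D5:**
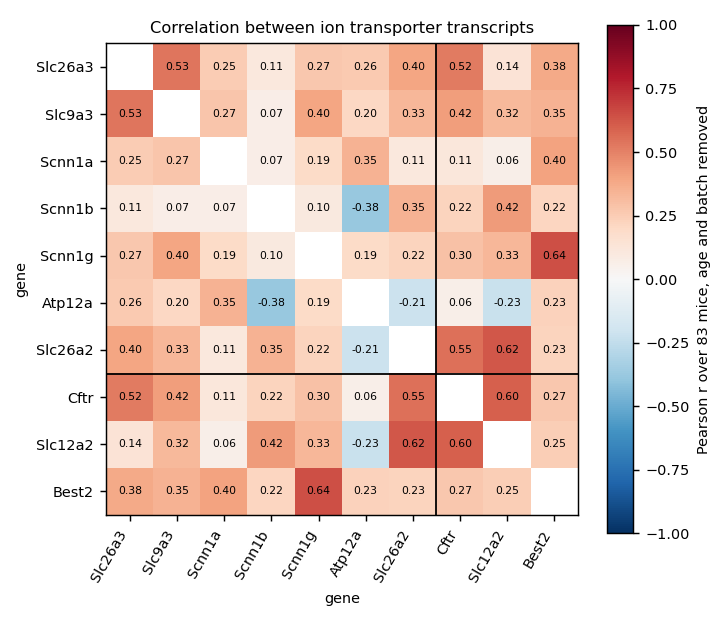
Correlation between the 10 transcripts. Each cell gives Pearson's r of log2 CPM over 83 mice after age and batch were removed, with rows and columns in the order absorptive then secretory, parted by black lines. The strongest cell is Best2 with Scnn1g (0.64), and every cell below 0 involves Atp12a.

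The spread between mice set the members apart as well. The SD of log2 CPM with age and batch removed was 0.146 for Slc12a2 and 0.170 for Cftr, and 41.5% and 52.8% of the 14962 genes with a mean of at least 1 CPM varied less. It was 0.574 for Best2 and 1.06 for Atp12a, and 97.2% and 98.8% of genes varied less. Slc9a3 was in between at 0.357, with 88.9% of genes below it. Slc12a2 and Cftr thus varied about as much as the middle of all genes, while Best2 and Atp12a were among the most variable genes of this tissue.

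For each member, the genes most like it over the 83 mice were taken as the 3 with the highest r after removing age and batch. For Best2 these were Hsd11b2 (r = 0.75), Pllp (0.62) and Rasd2 (0.62), all on chromosome 8, where Best2 lies too. Hsd11b2 encodes the enzyme that inactivates glucocorticoids and so keeps the mineralocorticoid receptor free for aldosterone. For Scnn1g they were Fkbp5 (0.68), a co-chaperone of steroid receptors and a known glucocorticoid-induced gene, Tfcp2l1 (0.66), an epithelial transcription factor, and Best2 (0.64). Tfcp2l1 was also first for Slc9a3 (0.76), ahead of Itgb6 (0.68) and Acot11 (0.68). For Slc26a3 they were Chp2 (0.66), a calcineurin B-like protein that binds sodium-proton exchangers, Phlpp2 (0.66) and Rhbdl2 (0.64). For Scnn1a they were Arhgap1 (0.81), Jup (0.74) and Cs (0.74), and for Scnn1b Rap1gap (0.74), B3gnt6 (0.61) and Ppif (0.60). For Atp12a they were Nt5e (0.71), Capn13 (0.68) and AI854703 (0.66). For Cftr they were Atp8b1 (0.78), Mecom (0.74) and Myo6 (0.72), a myosin motor of endocytosis. For Slc12a2 they were Galnt7 (0.81), Insr (0.78) and Scamp1 (0.77), and for Slc26a2 Foxj3 (0.82), Sos1 (0.80) and Med13 (0.80). Nothing on shared control follows from these values.

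Summed over the genes of each side, the absorptive transcripts amounted to 662.0 ± 48.2 TPM at 3 months (SD, n = 16), 625.3 ± 94.8 TPM at 24 months (SD, n = 17) and 712.1 ± 110.1 TPM at 28 months (SD, n = 18). The secretory transcripts amounted to 193.4 ± 18.3, 172.7 ± 23.3 and 188.4 ± 23.1 TPM at these ages. The ratio of the sums within a mouse had a median of 3.36 at 3 months (range 3.09 to 3.94) and 3.82 at 28 months (range 3.08 to 4.48). At the ages between, 9, 15 and 24 months, the medians were 3.65, 3.52 and 3.60, so the median was already above the 3-month one at 9 months. The ranges overlapped widely. The sums are set mainly by Slc26a3, Slc9a3 and Slc26a2 on the absorptive side and by Slc12a2 and Cftr on the secretory side, so Atp12a, Scnn1b and Best2 hardly enter them.

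The partners of these transporters were described at 28 against 3 months from lists of the same pathway, and their counts of called genes stand beside 49.4% of all tested genes called at these ages. Of the 9 absorption partners, 8 were tested, of which 2 rose and 4 fell. The other sodium-proton exchangers Slc9a2 (0.13, SE 0.04, edgeR adjusted p = 0.0085) and Slc9a8 (0.12, SE 0.04, edgeR adjusted p = 0.0139) rose, as Slc9a3 did. The amino acid transporter Slc6a14 fell by 0.44 (SE 0.06, edgeR adjusted p = 3.96e-09), with all 18 oldest mice below the 3-month median. The anion exchanger Slc26a6 fell by 0.33 (edgeR adjusted p = 9.75e-05) and the sodium-coupled butyrate transporter Slc5a8 by 0.15 (edgeR adjusted p = 0.0963).

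Of the 12 secretion partners, 11 were tested, of which 3 rose and 3 fell beyond the members themselves. The calls divided the potassium channels that recycle potassium during secretion. Kcnn4, a calcium-activated channel, rose by 0.25 (SE 0.04, edgeR adjusted p = 4.36e-06) and Kcnq1 by 0.08 (edgeR adjusted p = 0.0829). Kcne3, the accessory subunit that holds Kcnq1 open in the colon, fell by 0.43 (SE 0.08, edgeR adjusted p = 4.56e-06), and 17 of the 18 oldest mice lay below the 3-month median. Kcnk5, a background potassium channel, fell by 0.15 (edgeR adjusted p = 0.036) and the anion exchanger Slc4a2 by 0.11 (edgeR adjusted p = 0.0147). The chloride channel Clcn2 rose by 0.18 (edgeR adjusted p = 0.00427). Of the 8 genes that signal secretion, all tested, only Prkg2, the cyclic GMP-dependent kinase that acts on Cftr, was called (fell by 0.23, edgeR adjusted p = 0.00908), against 49.4% of all tested genes.

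The sodium pump drives transport in both directions. Its beta subunit Atp1b1, at 1072 TPM, fell by 0.23 at 28 against 3 months (SE 0.05, edgeR adjusted p = 7.17e-05), and 16 of the 18 oldest mice lay below the 3-month median. The other beta subunit of the list, Atp1b3, fell by 0.07 (edgeR adjusted p = 0.0589). Fxyd5, a regulator of the pump, rose by 0.21 (edgeR adjusted p = 0.0251).

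Of the 10 genes that control ENaC, all tested, 2 rose and 3 fell. Hsd11b2 fell by 0.31 (SE 0.10, edgeR adjusted p = 0.00757), and 12 of the 18 oldest mice lay below the 3-month median. Sgk1, the aldosterone-induced kinase that keeps ENaC at the membrane, fell by 0.28 (SE 0.14, edgeR adjusted p = 0.0949), with batch differences of -0.61, -0.25 and 0.11, so batch 3 went the other way. Furin, a protease that activates ENaC, rose by 0.26 (SE 0.04, edgeR adjusted p = 3.1e-07) and was higher in 17 of 18 mice. Tsc22d3, a glucocorticoid-induced gene, rose by 0.16 (edgeR adjusted p = 0.0874), and St14, the protease matriptase, fell by 0.08 (edgeR adjusted p = 0.0779). The mineralocorticoid receptor Nr3c2 (0.08, edgeR adjusted p = 0.184) and the glucocorticoid receptor Nr3c1 (-0.02, edgeR adjusted p = 0.805) did not pass.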

How the data were processed

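The authors deposited unnormalized counts of read pairs per gene, as whole numbers, for 83 mice that were not pooled. Per the labels and the methods of the study, stranded polyA libraries were trimmed with cutadapt 2.8 and PrinSeq Lite, aligned to GRCm38 with Hisat2 2.1.0, reduced to uniquely mapped reads with SAMtools 1.9 and counted by strand with featureCounts (Subread 2.0.1). Uniquely mapped reads leave near-identical copies uncounted, which can lower a gene. Cog7 and Gm15592 overlap Scnn1b and Cftr on the other strand, and Gm9359 and Gm15595 overlap Slc26a3 and Cftr on the same strand, where read pairs may be lost.

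Symbols, positions and merged exon lengths came from a GRCm38 annotation, which held 37652 of the 37764 genes. Counts were filtered by edgeR's filterByExpr by age (18325 genes kept), TMM-normalized and tested with edgeR 4.0.16 in R 4.3.3 (quasi-likelihood, age and library batch, all mice). The 95% intervals are the estimate ± 1.96 SE. Log2 CPM used a prior count of 2, and TPM the merged exon lengths. Residual correlations removed age and batch by least squares. The test was checked on simulated data. Python 3.11.15 was used for the rest.

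Ages were taken from the labels, and each mouse is 1 replicate. Counts differed in each of the 649 same-age pairs of mice by more than sampling noise (chi-square per gene at least 11.7). The members and lists were chosen with earlier results of these data known. All 10 members are named, and from each partner list at most 3 rises and 3 falls at 28 against 3 months among called genes with a mean of at least 1 CPM, and Nr3c2 and Nr3c1 were added after their values were seen. Some genes of the sodium pump list are not reported here. Alternatives were DESeq2 1.42.0, DESeq2 size factors, no filter, a minimum of 10 counts in each mouse, leaving out batch, a replicate block, an adjusted p below 0.05, only the ages compared, 4 marker scores as covariates and, chosen after seeing the data, leaving out each of 4 libraries.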

Additional observations from a re-analysis of the deposited data

How the results depend on the processing

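The counts of members called over the 5 ages (4 to 7), at 28 against 3 months (3 to 5), at 24 against 15 months (1 in each) and over the other 5 pairs of ages stayed within 1.5 times of the reported ones under all alternatives run, but the members called were not the same in each. With the goblet cell covariate, the member called at 24 against 15 months was Scnn1a, not Atp12a. At 9 against 3 months 0 members were called without the filter, with the smooth muscle covariate, in a fit of only the ages compared, at an adjusted p below 0.05 and without the 3-month libraries named in the report (0 to 1 over the libraries left out). At 15 against 9 months 1 was called by DESeq2 and with the epithelium covariate. At 28 against 24 months 3 were called by DESeq2, 2 with DESeq2 size factors, with at least 10 counts in every mouse, with the posterior Hox covariate and in a fit of only the ages compared, 0 with the goblet cell covariate, and 1 to 2 without single libraries. Departure from a straight line was called for 1 with the goblet cell covariate, Scnn1a, which is not among the 4 reported, and for 2, Best2 and Scnn1b, at an adjusted p below 0.05. The cause was not tested.

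With the replicate block, 0 members were called at 9 against 3 months and 2 departed from a straight line. The numbers do not pair mice: over 161 same-number pairs the median correlation of deviations was 0.0103 (-0.314 to 0.29), and 3 of 83 mice correlated best with their own number.

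Uncalled fold changes at 28 against 3 months changed sign for Cftr (0.0139) and Best2 (0.0703) with the smooth muscle covariate, for Best2 without 3-month libraries (0.0260 to 0.0550, lowest over libraries -0.0629), and for Slc26a2 with DESeq2 (0.0064), its size factors (0.0064), no filter (0.0005), at least 10 counts (0.0056), the smooth muscle covariate (0.0447) and without libraries (lowest -0.0623, highest 0.0175). Of 267 values of single genes under alternatives, 234 kept direction and call, 19 lost and 2 gained the call. Scnn1g, with 0 to 34 read pairs per mouse, was limited by depth.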
